A study of Ogataea parapolymorpha with 8 samples.

Results

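The comparison described here is that of the wild-type chemostats of Ogataea parapolymorpha, a thermotolerant methylotrophic yeast, over all 5428 genes of the count table. Its 4 libraries, of 8 in the series, were chosen by label. The wild type was strain CBS11895. In 2 libraries the label says micro-aerobic, with glucose at 20 g/L and Tween 80 at 420 mg/L. In 2 it says aerobic, with glucose at 7.5 g/L and Tween 80 at 84 mg/L. Shared by all 4 were chemostat growth at pH 6 with 0.1 volumes exchanged per h, urea medium, ergosterol at 10 mg/L and pluronic acid as antifoam. The other 4 libraries came from strain IMX2167, a mutant labelled as lacking GUT2 and the NDI and NDE genes. They were labelled aerobic at 7.5 g/L glucose, 2 from batches (pH 6) and 2 from chemostats (pH 5, 0.1 volumes exchanged per h). Their labels name SM medium where those of the wild type name SM urea medium, and no Tween 80, ergosterol or antifoam. They entered the fit for the estimate of spread. Glucose, Tween 80, the oxygen label and a code in the library titles differ together between the wild-type groups and cannot be told apart. Below, the groups are called micro-aerobic-labelled and aerobic-labelled, after their labels. A list of genes tied to low oxygen is given first. It was chosen with earlier results of these data known and is no check of the label. Of its 11 measured members, 6 were called lower in the micro-aerobic-labelled libraries, 3 higher and 2 neither way. Over all genes tested, 22.3% were called lower and 23.2% higher.

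Yeasts use molecular oxygen in more than respiration. Squalene epoxidase, lanosterol demethylase and the sterol oxidases and desaturases need it, as do fatty acid desaturase, a heme synthesis oxidase and the hydroxylases of ubiquinone and sphingolipid synthesis. In Saccharomyces cerevisiae, transcripts of many of these steps are known to rise when oxygen or sterol runs short. Ergosterol and Tween 80, a source of oleic acid, stand in for the products that cannot be made without oxygen. Carbon supply acts on other genes: in yeasts, ample sugar is known to keep down the genes for alternative carbon sources, the glyoxylate cycle and, in methylotrophs, the peroxisomal methanol pathway.

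Symbols are those of the S. cerevisiae homolog that the deposited annotation gives, and do not settle which paralog a gene is. Values are CPM, the counts of a gene scaled to library size and not to gene length, given for replicate 1 and then replicate 2 of a group. Changes are log2 ratios of micro-aerobic-labelled over aerobic-labelled libraries, ± SE. "Rose", "fell" and "called" are used only of an adjusted p below 0.05 in edgeR's quasi-likelihood test. Counts for each list below stand beside 23.2% of all genes tested called higher and 22.3% called lower. Depth was 6190556 and 6319424 counts in the micro-aerobic-labelled libraries and 6104949 and 6749184 in the aerobic-labelled ones. The labels do not say whether replicates came from separate cultures, so the p-values measure the spread between these libraries, which may be technical. The micro-aerobic-labelled replicates were closer to each other than the aerobic-labelled ones (SD of the log2 ratio between replicates 0.245 and 0.389 over 5265 genes). Aerobic-labelled replicate 1 stood apart from replicate 2 by gene length, as described last, and list counts that moved by over 1.5 times without it are given with the list, beside some smaller moves. Homologs of genes deleted in the mutant were not called between the wild-type groups: GUT2 had 357 and 339.5 CPM in the micro-aerobic-labelled libraries and 393 and 381 CPM in the aerobic-labelled ones (change -0.15 ± 0.13, adjusted p = 0.362), and NDE1 had 57.7 and 49.7 CPM in the micro-aerobic-labelled libraries and 66.4 and 72.1 CPM in the aerobic-labelled ones (change -0.37 ± 0.17, adjusted p = 0.0997). With the trend with gene length taken out, NDE1 fell (change -0.49, adjusted p = 0.0268).

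The oxygen label was set beside 11 measured homologs, of 24 on a hand-made list of genes tied to low oxygen in S. cerevisiae. The list sets no direction for its members, which need not all rise when oxygen is low. Its rises and falls are thus not a count for or against the label. The list was chosen with earlier results of these data known, so it describes these libraries and is no check of the label. ERG25, ERG11, ERG3, HEM13 and OLE1 also belong to the oxygen-requiring lists described below. ERG25, ERG11, ERG3 and HEM13 were the members with the largest differences, and all 4 were lower in the micro-aerobic-labelled libraries. In the whole list 6 genes fell, 3 rose and 2 were not called, with a median change of -0.47. Over all 5265 genes tested, 22.3% were called lower and 23.2% higher, and the median change was 0.02. The 3 that rose were NCE103, carbonic anhydrase (change 2.38), AAC3, an ADP/ATP carrier (2.03), and OXR1 (0.74). UPC2, a regulator of sterol genes, fell by 0.66 ± 0.17, a call lost without micro-aerobic-labelled replicate 1 (adjusted p = 0.0642), and ANB1 and CYB5 stood at -0.09 and -0.09. OXR1 lost its call without either micro-aerobic-labelled replicate or without aerobic-labelled replicate 1 (adjusted p = 0.0865 to 0.199), in the fit of the 4 wild-type libraries (0.0733) and in DESeq2 (0.0659). For ERG25, ERG11 and HEM13, picked for their large falls, values in the mutant libraries, all labelled aerobic, are given as a description. Those of the 3 genes that rose are not given. ERG25 had 14.5 and 15.5 CPM in the micro-aerobic-labelled wild type, 42.1 and 45.8 in the mutant batch and 17.1 and 18.4 in the mutant chemostat, against 3677 and 3585 in the aerobic-labelled wild type. The high values thus lay in the aerobic-labelled wild type alone. ERG11 had 432 and 388 CPM in the mutant batch and 239.9 and 253 in its chemostat, and HEM13 had 128 and 138 CPM and 88.6 and 84.5 CPM there, all closer to the micro-aerobic-labelled values given below. The mutant labels name no urea, ergosterol, Tween 80 or antifoam, and these differences were not tested. The labels are used here as given, and an exchange of the 2 would turn round each direction below. Whether they were exchanged was not tested.

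Of the 5265 genes tested, 2398 (45.5%) were called, 1222 (23.2%) higher and 1176 (22.3%) lower in the micro-aerobic-labelled libraries. Most of these changes were small. By at least 2-fold 471 genes (8.95%) were higher and 414 (7.86%) lower, by at least 4-fold 150 (2.85%) and 155 (2.94%), and by at least 16-fold 47 (0.893%) and 37 (0.703%). The few genes with the largest changes took several percent of the counts in the group where they were high. The 47 genes higher by at least 16-fold took 7.65% and 7.65% of the counts in the micro-aerobic-labelled libraries, against 0.143% and 0.160% in the aerobic-labelled ones. The 37 genes lower by that much took 0.149% and 0.156%, against 4.99% and 5.20%. These shares describe genes chosen by their change and support nothing further. The 2 groups did not overlap in 73.1% of genes tested, so a lack of overlap with 2 libraries each says little on its own.

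**Figure D1:**
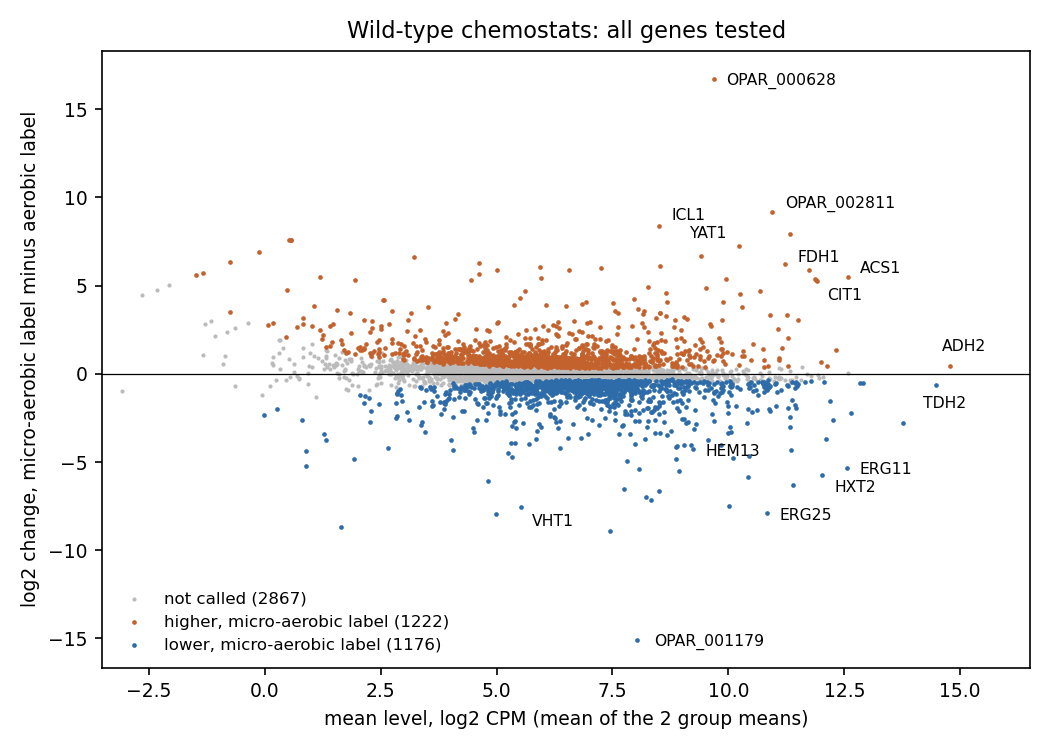
Log2 change of each of the 5265 genes tested (y axis, micro-aerobic label minus aerobic label) against its mean level (x axis, log2 CPM), one point per gene, coloured where the adjusted p was below 0.05. OPAR_000628 at the top and OPAR_001179 at the bottom had 0 counts in one group, so their fitted changes are no measure of size; ACS1, CIT1 and FDH1 stand high among abundant genes and ERG11, ERG25 and HXT2 stand low.

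The 5 oxygen-requiring steps of sterol synthesis all fell in the micro-aerobic-labelled libraries, with a median change of -4.34. ERG25 (OPAR_004641, chromosome 7, 216691 to 217593, minus strand), the C-4 sterol methyl oxidase, had 14.5 and 15.5 CPM in the micro-aerobic-labelled libraries, against 3677 and 3585 CPM in the aerobic-labelled ones, and fell by 7.92 ± 0.18 (adjusted p = 3.1e-12). ERG11 (OPAR_002894, chromosome 5, 190549 to 192105, minus strand), lanosterol 14-alpha-demethylase, had 293 and 291 CPM against 11161 and 12406 CPM. ERG3 (OPAR_002625, chromosome 4, 1077390 to 1078520, plus strand), the C-5 sterol desaturase, had 229 and 259 against 4756 and 5134 CPM. In each of these 3 genes both aerobic-labelled values lay more than 10 times above both micro-aerobic-labelled ones. ERG1 (OPAR_000517, chromosome 1, 847649 to 849900, minus strand), squalene epoxidase, had 67.6 and 54.5 CPM against 991 and 995 CPM. ERG5 (OPAR_004481, chromosome 6, 1449380 to 1451110, minus strand), the C-22 sterol desaturase, moved least of the 5, with 543 and 542 CPM against 2169.9 and 2202 CPM and a fall of 2.01 ± 0.14 (adjusted p = 3.3e-08). Together these genes took 0.116% and 0.115% of the counts in the micro-aerobic-labelled libraries and 1.95% and 2.28% in the aerobic-labelled ones. Per kilobase, ERG11 stood at 187 CPM in the micro-aerobic-labelled and 7568 CPM in the aerobic-labelled libraries, and ERG25 at 16.6 and 4021. ERG5 was thus the most abundant of the 5 per length in the micro-aerobic-labelled libraries, at 314 CPM per kilobase, and ERG11 in the aerobic-labelled ones. A further gene, ERG25_1 in the annotation, carries the same fatty acid hydroxylase domain as ERG25 and fell by 0.33 ± 0.13, a call lost when any 1 wild-type library was left out (adjusted p = 0.0540 to 0.195).

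The other genes of the pathway, the partner reductase of ERG11 included, mostly moved less. Of 18 tested, 10 fell, 1 rose and 7 were not called, with a median change of -0.54. The largest fall was that of NCP1, the reductase that passes electrons to ERG11, which had 148 and 151 CPM against 882 and 915 CPM (change -2.58 ± 0.13). ERG2, the C-8 sterol isomerase, fell by 2.28 ± 0.16, and ERG24, the C-14 reductase directly after ERG11, by 1.23 ± 0.13. In the mevalonate part, HMG1, the HMG-CoA reductase, fell by 1.03 ± 0.14, ERG13, the HMG-CoA synthase, by 0.86 ± 0.13, ERG10, the acetoacetyl-CoA thiolase, by 0.95 ± 0.21, and ERG12, mevalonate kinase, by 1.13 ± 0.3. ERG12 had few counts, 16.3 and 10.4 CPM against 19.3 and 38.7 CPM, and lost its call without micro-aerobic-labelled replicate 2 (adjusted p = 0.0958) or aerobic-labelled replicate 2 (0.142). MVD1, IDI1, ERG20, ERG7, ERG9, ERG26 and ERG28 lay between -0.26 and 0.18 and were not called, though ERG28 fell without aerobic-labelled replicate 2 (change -0.57, adjusted p = 0.0246) and MVD1 fell with the trend with gene length taken out (change -0.35, adjusted p = 0.0454). ERG6, the C-24 methyltransferase, had 488 and 592 CPM against 450.2 and 383 CPM and rose by 0.37 ± 0.14, a call lost in 6 alternatives, among them without micro-aerobic-labelled replicate 2 (adjusted p = 0.354) and without aerobic-labelled replicate 2 (0.194). Called falls were thus found in all 5 oxygen-requiring steps and in 10 of 18 other genes of the pathway, NCP1 among them, against 22.3% of all genes tested.

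**Figure D2:**
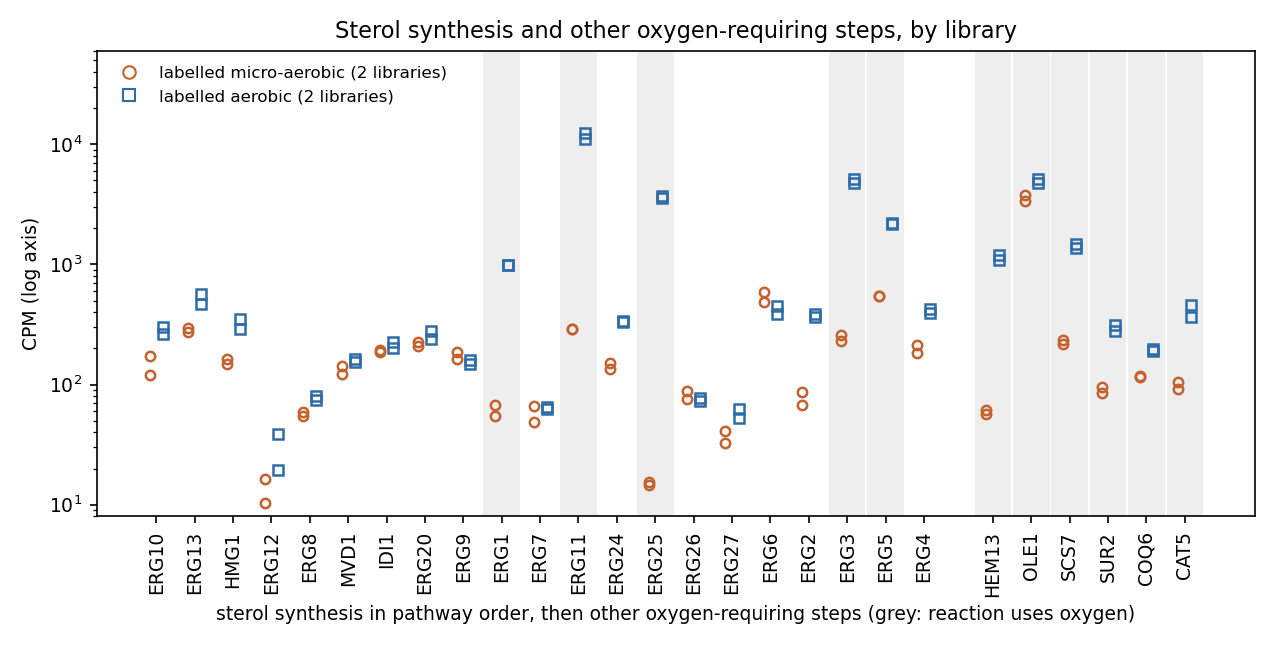
CPM (log axis) of each sterol synthesis gene in pathway order and of 6 other oxygen-requiring steps, with the 2 micro-aerobic-labelled libraries as circles on the left and the 2 aerobic-labelled ones as squares on the right of each gene. In the grey columns, whose reactions use oxygen, the circles lie below the squares, from 14.5 and 15.5 against 3677 and 3585 CPM for ERG25 to 3381 and 3783 against 4801 and 5108 CPM for OLE1.

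A list of 6 other oxygen-requiring genes of lipid, heme and quinone synthesis fell as well, at each member, with a median change of -1.88. HEM13 (OPAR_004042, chromosome 6, 762452 to 763405, plus strand), coproporphyrinogen oxidase, had 61.3 and 56.4 CPM in the micro-aerobic-labelled libraries, against 1202 and 1095 CPM in the aerobic-labelled ones. SCS7, the hydroxylase of sphingolipid fatty acids, had 219 and 234 against 1359 and 1483 CPM, and SUR2, the hydroxylase of the sphingoid base, had 84.5 and 95 against 310.4 and 279.7 CPM. CAT5 and COQ6, hydroxylases of ubiquinone synthesis, fell by 2.05 ± 0.15 and 0.73 ± 0.16, and CAT5 overlaps another gene. OLE1, the delta-9 fatty acid desaturase, was abundant in both groups, with 3381 and 3783 against 4801 and 5108 CPM, and fell by only 0.47 ± 0.14 (adjusted p = 0.0143). Its call was lost without micro-aerobic-labelled replicate 1 (adjusted p = 0.158). HEM13 moved most in this group and OLE1 least.

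Heme synthesis, HEM13 included, held 6 falls and 2 rises among 11 genes tested (median -0.65). The first enzyme, 5-aminolevulinate synthase HEM1, had 134 and 121 CPM against 331 and 365 CPM and fell by 1.45 ± 0.21. HEM12, uroporphyrinogen decarboxylase, HEM14, protoporphyrinogen oxidase, which also uses oxygen, and HEM15, ferrochelatase, fell by 0.95 ± 0.13, 0.9 ± 0.15 and 0.65 ± 0.14. MET1, which acts on the branch to siroheme, fell by 1.35 ± 0.14, and MET8 of the same branch stood at 0.16. HEM4, uroporphyrinogen synthase, rose by 1.46 ± 0.19, with 47.1 and 42.2 against 18.9 and 13.7 CPM, and HEM3, porphobilinogen deaminase, by 0.74 ± 0.19. HEM3 lost its call without aerobic-labelled replicate 2 (adjusted p = 0.0741). HEM2, aminolevulinate dehydratase, had 98.3 and 97.6 against 108 and 89.6 CPM (change -0.01), and the mitochondrial glycine carrier HEM25 had 17.2 and 13.4 against 6.48 and 13.4 CPM (adjusted p = 0.146). HEM25 was called without aerobic-labelled replicate 2, with a change of 1.23 (adjusted p = 0.0175). In ubiquinone synthesis 5 of 11 genes fell and 1 rose (median -0.41). COQ4, which organizes the synthesis complex, fell by 2.25 ± 0.15, COQ11 by 1.87 ± 0.13 and COQ9 by 1.49 ± 0.13, while COQ2, the prenyl transferase, rose by 0.98 ± 0.16. The list's median was -0.18 without aerobic-labelled replicate 1.

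In fatty acid synthesis rises outnumbered falls. Of 12 genes 6 rose and 3 fell, with a median of 0.24. ACC1 (OPAR_002471, chromosome 4, 843279 to 850417, minus strand), acetyl-CoA carboxylase, had 1497 and 1357 CPM in the micro-aerobic-labelled libraries, against 341 and 492 CPM in the aerobic-labelled ones, and rose by 1.78 ± 0.19. FAS2 and FAS1, the fatty acid synthase subunits, rose by 1.29 ± 0.13 and 1.02 ± 0.14, and FAA1, a long-chain acyl-CoA synthetase, by 1.48 ± 0.15; FAS2 and FAA1 overlap other genes. FAT1, a very long-chain acyl-CoA synthetase, had 92.7 and 85.6 against 371 and 406 CPM and fell by 2.12 ± 0.13. In phospholipid synthesis 7 of 21 genes rose and 5 fell (median -0.12), shares near those of all genes tested (23.2% and 22.3%). PSD2 and PSD1, phosphatidylserine decarboxylases, rose by 3.57 ± 0.18 and 0.96 ± 0.18, and OPI1, a repressor of phospholipid genes in S. cerevisiae, by 1.15 ± 0.14. PCT1 of the choline branch fell by 0.89 ± 0.16. In sphingolipid synthesis 5 of 14 fell and 3 rose (median -0.19). Besides SCS7 and SUR2, the ceramidase YPC1 fell by 1.77 ± 0.16, and DPL1, the sphingosine phosphate lyase, rose by 1.52 ± 0.21. Of 9 genes for sterol storage, transport and regulation, NCR1, a vacuolar sterol transport protein, had 249 and 229 against 55.7 and 63.9 CPM and rose by 2.0 ± 0.18, and SPT23, a regulator of OLE1 in S. cerevisiae, rose by 0.85 ± 0.15. DAP1, a heme protein that acts with ERG11, fell by 1.15 ± 0.17 and NPC2 by 0.97 ± 0.14. In all, 4 of these 9 fell and 2 rose.

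Glycolysis was lower in the micro-aerobic-labelled libraries at each of its 12 measured genes, with changes of -3.38 to -0.65 and a median of -2.08. The list took 2.94% and 2.87% of counts in those libraries and 6.83% and 7.06% in the aerobic-labelled ones. The falls were largest at entry. HXK2 (OPAR_001050, chromosome 2, 744420 to 745871, minus strand), hexokinase, had 166 and 191 CPM against 2102 and 1609.9 CPM, and GLK1/EMI2, glucokinase, had 576 and 561 against 4779.5 and 4356 CPM. PGI1, glucose-6-phosphate isomerase, fell by 2.01 ± 0.14, the phosphofructokinase subunits PFK1 and PFK2 by 2.59 ± 0.18 and 2.15 ± 0.2, aldolase FBA1 by 1.54 ± 0.15 and triosephosphate isomerase TPI1 by 1.96 ± 0.16. Lower in the pathway, PGK1, phosphoglycerate kinase, fell by 1.76 ± 0.16, GPM1, phosphoglycerate mutase, by 2.6 ± 0.18, ENO2, enolase, by 2.21 ± 0.16 and CDC19, pyruvate kinase, by 1.91 ± 0.15. TDH2, glyceraldehyde-3-phosphate dehydrogenase, was the most abundant gene of the list in both groups and changed least, with 17697 and 17668 against 27388 and 28116 CPM (change -0.65 ± 0.15, adjusted p = 0.00374). It lost its call without micro-aerobic-labelled replicate 1 (adjusted p = 0.0510).

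Genes around pyruvate and acetaldehyde moved in both directions. PDC5, pyruvate decarboxylase, had 783 and 825 CPM in the micro-aerobic-labelled libraries against 4100.1 and 4634 CPM in the aerobic-labelled ones and fell by 2.44 ± 0.19. ALD4 (OPAR_001342, chromosome 3, 236453 to 238009, plus strand), mitochondrial aldehyde dehydrogenase, had 7472 and 7254 against 192 and 181 CPM, and ACS1 (OPAR_004852, chromosome 7, 606811 to 608823, minus strand), acetyl-CoA synthetase, had 11387 and 12509.6 against 252 and 285 CPM. Both rose more than 30-fold. ADH2, alcohol dehydrogenase, was among the 3 most abundant genes of both groups, with 30894 and 34739 against 26295 and 21440.0 CPM, and rose by 0.46 ± 0.17 (adjusted p = 0.0418). This call did not hold in the fit of the 4 wild-type libraries alone (adjusted p = 0.0694), under RLE scaling (0.0575), with the length trend taken out (0.0811) or without either micro-aerobic-labelled replicate or aerobic-labelled replicate 2 (0.101 to 0.245). PYC1, pyruvate carboxylase, rose by 0.99 ± 0.16, while ACS2, the other acetyl-CoA synthetase, stood at 0.06.

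The TCA cycle and pyruvate dehydrogenase list held 14 rises and no fall among 17 genes (median 1.8), and its share of counts was 2.17% and 2.17% in the micro-aerobic-labelled libraries and 0.460% and 0.449% in the aerobic-labelled ones. CIT1 (OPAR_003389, chromosome 5, 1047413 to 1048996, plus strand), citrate synthase, had 7021 and 7476 CPM against 176 and 177 CPM. ACO1, aconitase, had 4516 and 4454 against 449 and 441 CPM. The succinate dehydrogenase genes SDH1, SDH2 and SDH4 rose by 3.21 ± 0.15, 3.27 ± 0.17 and 2.65 ± 0.17, and fumarase FUM1 by 2.87 ± 0.16. Malate dehydrogenase MDH1, the isocitrate dehydrogenase subunits IDH1 and IDH2 and the oxoglutarate dehydrogenase subunits KGD1 and KGD2 rose by 1.85, 1.8, 1.02, 1.89 and 1.79. LSC2, a succinyl-CoA ligase subunit, rose by 0.75 ± 0.15. The pyruvate dehydrogenase complex, which feeds the cycle, had changes of 0.04 to 0.78. Its subunits LAT1, with 421 and 421 against 421 and 394 CPM, LPD1, with 782 and 844 against 856 and 725 CPM, and PDB1 were not called (changes 0.05, 0.04 and 0.21). PDX1 and PDA1 rose by 0.78 ± 0.13 and 0.45 ± 0.14, and PDA1 lost its call without either micro-aerobic-labelled replicate (adjusted p = 0.0912 and 0.0836). No test compared the complex with the cycle.

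All 5 measured genes of gluconeogenesis and the glyoxylate cycle rose, by a median of 4.59. Besides ACS1, these were ICL1, MLS1, PCK1 and FBP1. ICL1 (OPAR_000168, chromosome 1, 278027 to 279673, minus strand), isocitrate lyase, had 673 and 783 CPM in the micro-aerobic-labelled libraries, against 3.62 and 0.947 CPM in the aerobic-labelled ones. MLS1, malate synthase, had 737 and 816 against 31.5 and 33.1 CPM. PCK1, phosphoenolpyruvate carboxykinase, had 516 and 428 against 22.7 and 27.8 CPM, and fructose bisphosphatase FBP1, with 262 and 249 against 106 and 117 CPM, rose least (1.2). The aerobic-labelled values of ICL1 rest on few counts. Of 4 carriers of organic acids, ADY2 (OPAR_002260, chromosome 4, 500044 to 500859, minus strand), an acetate transporter, had 7624 and 7296 against 189 and 195 CPM and rose by 5.28 ± 0.17, and MCH5, a riboflavin transporter of the same family as the monocarboxylate carriers, fell by 0.67 ± 0.16, a call lost without micro-aerobic-labelled replicate 1 (adjusted p = 0.0526).

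**Figure D3:**
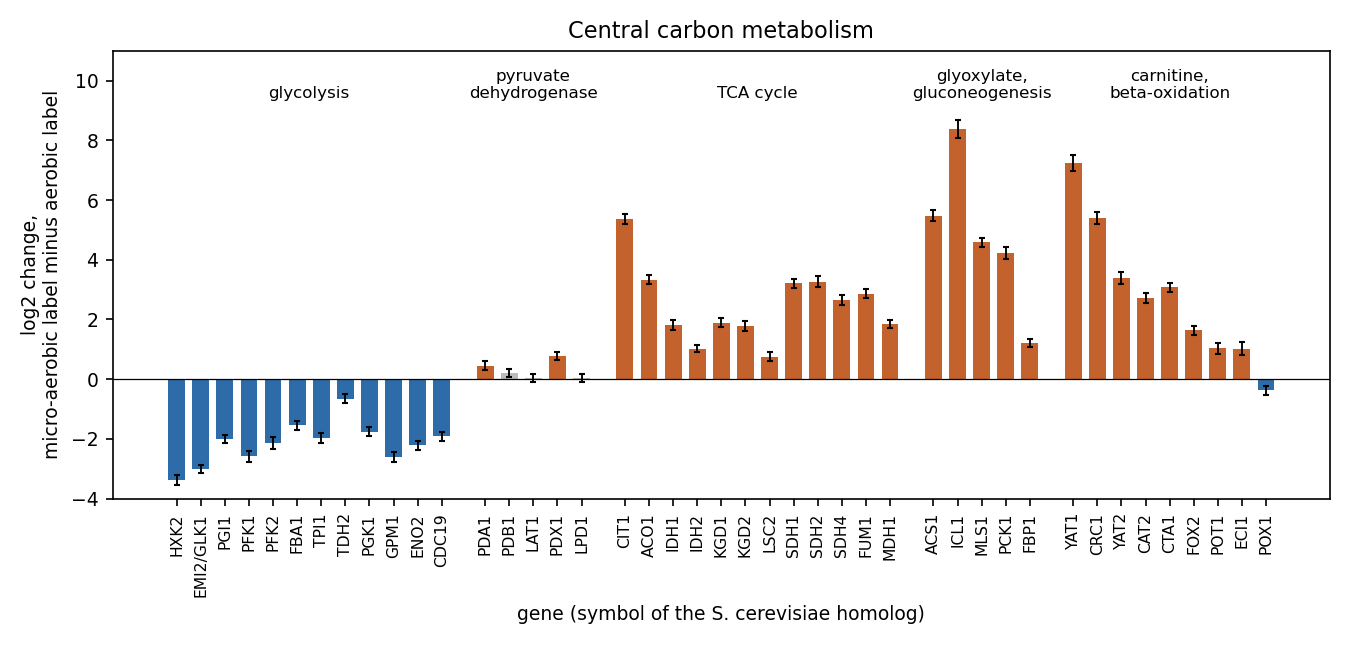
Log2 change (bars, micro-aerobic label minus aerobic label) with its SE (error bars) for genes of central carbon metabolism in pathway order; blue bars fell, orange bars rose and grey bars were not called. The 12 glycolytic genes run -3.38 to -0.65, the pyruvate dehydrogenase genes run 0.04 to 0.78, and CIT1 (5.36), ICL1 (8.38) and YAT1 (7.24) are the highest of their groups.

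Carnitine and beta-oxidation genes rose with the glyoxylate cycle: 9 of 13 were called higher and 1 lower (median 1.03). YAT1 (OPAR_003974, chromosome 6, 658669 to 660937, plus strand) and YAT2, carnitine acetyltransferases, had 2373 and 2422 CPM against 16 and 15.8 CPM and 521 and 520.3 against 38.9 and 61.1 CPM. CRC1, the mitochondrial carnitine carrier, had 1812 and 2075 against 44.4 and 47.3 CPM, and CTA1, peroxisomal catalase, 5038 and 5389 against 617 and 618 CPM. The enzymes of the oxidation spiral itself moved less. FOX2, the multifunctional enzyme, rose by 1.63 ± 0.15, POT1, the thiolase, by 1.03 ± 0.18 and ECI1, an enoyl-CoA isomerase, by 1.01 ± 0.21, while POX1, the first oxidase, fell by 0.37 ± 0.14. The POX1 call was lost without either micro-aerobic-labelled replicate or without aerobic-labelled replicate 2 (adjusted p = 0.0778 to 0.317), in the fit of the 4 wild-type libraries (0.0656) and under upper quartile scaling (0.141). Peroxins, the proteins that build peroxisomes, held 8 rises and 3 falls among 15 (median 0.42). PEX11, known for peroxisome division, had 964 and 1004 against 107 and 117 CPM and rose by 3.13 ± 0.15, PEX13 by 0.93 ± 0.14 and PEX3 by 0.81 ± 0.13. Without aerobic-labelled replicate 1, 6 peroxins rose and 3 fell. Of the methanol pathway, FDH1 (OPAR_005301, chromosome 7, 1336593 to 1337681, minus strand), formate dehydrogenase, had 4879 and 4533 against 59.3 and 68.2 CPM, OPAR_002900, with alcohol oxidase domains, 6719 and 6698 against 106 and 125 CPM, and FLD1, formaldehyde dehydrogenase, rose by 1.43 ± 0.15.

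Regulators of carbon use stayed near the level of all genes. Of 24 measured 7 rose and 4 fell, with a median of 0.09. ADR1 (OPAR_001721, chromosome 3, 861639 to 865118, plus strand), in S. cerevisiae an activator of genes for ethanol and fatty acid use, had 786 and 829 CPM against 185 and 217 CPM and rose by 2.01 ± 0.13. STD1, of the glucose-sensing pathway, rose by 1.58 ± 0.18, and CAT8, in S. cerevisiae an activator of gluconeogenic genes, by 1.36 ± 0.16. HAP3, a subunit of the CCAAT-binding complex that in S. cerevisiae acts on respiratory genes, had 11.8 and 14.7 against 44.1 and 40.9 CPM and fell by 1.68 ± 0.21. SNF1, the kinase needed for growth on poor carbon sources, rose by 0.75 ± 0.15.

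Genes of the pentose phosphate pathway and NADPH supply rose in 9 of 11 cases and fell in 1 (median 1.06). IDP2 (OPAR_003817, chromosome 6, 399267 to 400493, minus strand), cytosolic NADP-dependent isocitrate dehydrogenase, had 1320.2 and 1378 CPM against 15.4 and 11.4 CPM and rose by 6.66 ± 0.19. STB5, in S. cerevisiae a regulator of NADPH genes, rose by 2.24 ± 0.19, IDP1, the mitochondrial isocitrate dehydrogenase, by 1.35 ± 0.13 and ZWF1, glucose-6-phosphate dehydrogenase, by 1.32 ± 0.14. GDH1, an NADPH-using glutamate dehydrogenase, fell by 0.48 ± 0.15, a call lost without either micro-aerobic-labelled replicate (adjusted p = 0.0649 and 0.153).

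The respiratory chain did not move as one. Genes of complex III and its cytochromes held 7 rises and no fall among 14 (median 0.4; 9 rises and a median of 0.63 without aerobic-labelled replicate 1), led by the Rieske protein gene RIP1 (1.18) and the core protein QCR2 (1.01), with CYC3 and CYT2, heme lyases of the cytochromes, at 0.99 and 0.82. In complex IV and its assembly 7 of 18 fell and 1 rose (median -0.36). COX15, which makes heme a in a reaction that uses oxygen, had 137 and 149.6 CPM against 630.4 and 648 CPM and fell by 2.16 ± 0.13, and the subunit genes COX12 and COX13 fell by 1.01 ± 0.16 and 0.72 ± 0.15, as did the assembly gene COX11 by 0.75 ± 0.16. Without aerobic-labelled replicate 1, 4 of its genes fell and 2 rose (median -0.25). In ATP synthase 7 of 16 rose and none fell (median 0.54), with 11 rises without that replicate. ATP4 rose by 1.07 ± 0.16, ATP5 by 0.9 ± 0.16, and ATP1 and ATP14 by 0.8 and 0.8. Cytochrome c itself, CYC1, stood at -0.2, and fell without aerobic-labelled replicate 2 (change -0.53, adjusted p = 0.00859).

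Mitochondrial import and folding held 7 rises and 2 falls among 30 genes (median 0.09), led by the chaperonin HSP60 (1.07) and TIM21 (0.95); without aerobic-labelled replicate 1 there were 9 rises and no fall. TOM7 fell by 0.74 ± 0.18 and lost its call without that replicate (adjusted p = 0.0659), and OXA1, at 0.63, overlaps another gene and lost its call without either micro-aerobic-labelled replicate or without aerobic-labelled replicate 2 (adjusted p = 0.0539 to 0.0991). The share of rises in this import list was near the 23.2% of all genes tested. Iron-sulfur cluster genes held 7 rises and 3 falls among 23 (median 0.08), against 23.2% and 22.3% of all genes tested. NFS1, the cysteine desulfurase that donates sulfur, rose by 1.56 ± 0.16, IBA57 by 1.43 ± 0.17 and NFU1 by 1.17 ± 0.2, and ISA2 fell by 1.06 ± 0.17. With length trends taken out, 6 iron-sulfur genes fell. Transporters of iron, copper and zinc held 10 falls and 3 rises among 16 (median -0.56), where 22.3% of all genes tested were lower and 23.2% higher. FET3, the ferroxidase of high-affinity iron uptake, had 864 and 973 CPM against 2724 and 3759.7 CPM. SMF2, a manganese carrier, fell by 1.43 ± 0.18, and CCC2, a copper pump of the secretory route, by 1.46 ± 0.17; CCC2 overlaps another gene. CCC1, which moves iron into the vacuole, rose by 1.84 ± 0.15. In oxidative defence 8 of 22 genes rose and 8 fell. Besides CTA1, SOD2, mitochondrial superoxide dismutase, had 862 and 849 against 152 and 156 CPM, though it overlaps AHA1, and CCP1, cytochrome c peroxidase, rose by 1.76 ± 0.15. MXR1, a methionine sulfoxide reductase, fell by 1.67 ± 0.14.

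Protein folding and modification in the endoplasmic reticulum was lower in the micro-aerobic-labelled libraries: 19 of 28 genes fell and 1 rose (median -0.53), against 22.3% of all genes called lower. ERO1 (OPAR_000121, chromosome 1, 205747 to 207378, plus strand), the thiol oxidase that passes electrons to oxygen, had 81.5 and 83.8 CPM against 699 and 878 CPM and fell by 3.25 ± 0.15. JEM1 and SCJ1, co-chaperones of KAR2, fell by 2.51 ± 0.18 and 1.01 ± 0.16, and ALG5, a glucosyltransferase, rose by 1.4 ± 0.25. Beyond ERO1 and JEM1 the falls were of about 2-fold or less. Of 34 cell wall genes 11 fell and 7 rose (median -0.17). GAS4 fell by 1.73 ± 0.38 at 2.07 and 3.03 against 7.63 and 9.31 CPM, KNH1 by 1.15 ± 0.19 and the transglycosylase CRH1 by 1.12 ± 0.15. SCW10, a glucanase-like wall protein, had 2502 and 2499 against 971 and 945 CPM and rose by 1.38 ± 0.16. Without aerobic-labelled replicate 1, 13 fell and 2 rose.

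Stress proteins differed in size of change. HSP26, a small heat shock protein, had 26.2 and 57.7 CPM in the micro-aerobic-labelled libraries, against 571 and 527 CPM in the aerobic-labelled ones. HSP12, a membrane-associated stress protein, had 714 and 737 against 3750.4 and 2438 CPM, and HSP104, a disaggregase, fell by 0.93 ± 0.15. In the list 7 of 19 fell and 5 rose, AHA1, an HSP90 co-chaperone that overlaps SOD2, by 0.88 ± 0.16. In storage carbohydrates 5 of 12 fell and 3 rose. GPH1, glycogen phosphorylase, fell by 1.47 ± 0.16 and TPS3, of the trehalose synthase complex, by 1.31 ± 0.13, while ATH1, the acid trehalase, rose by 1.93 ± 0.22 and GLG2, the glycogen primer, by 1.5 ± 0.14.

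In nucleotide synthesis 15 of 26 genes fell and 5 rose (median -0.46). URA9 (OPAR_001159, chromosome 2, 929223 to 930551, minus strand), annotated as a mitochondrial quinone-linked dihydroorotate dehydrogenase, had 144 and 124 CPM against 384 and 418 CPM and fell by 1.58 ± 0.14, ADE1 fell by 1.23 ± 0.13 and FUR1, uracil phosphoribosyltransferase, which overlaps another gene, by 1.23 ± 0.17. PRS1, which makes phosphoribosyl pyrophosphate, rose by 1.33 ± 0.14. Without aerobic-labelled replicate 1, 12 genes fell and 3 rose. RNR3, ribonucleotide reductase, had 286 and 173 against 86.4 and 149 CPM. It was called higher by 0.96 ± 0.25, and the call was lost without micro-aerobic-labelled replicate 1 (adjusted p = 0.139) or aerobic-labelled replicate 1 (0.0913). Among 40 vitamin and cofactor genes 15 fell and 13 rose (median 0.05, and -0.01 without aerobic-labelled replicate 1). VHT1 (OPAR_001197, chromosome 2, 990305 to 991918, minus strand), the biotin transporter, had 0.160 and 0.799 against 84.5 and 100.2 CPM, PDX3, which oxidizes pyridoxine phosphate with oxygen and overlaps another gene, fell by 2.7 ± 0.15, and FEN2, the pantothenate transporter, by 2.4 ± 0.43. CAB1 (OPAR_005201, chromosome 7, 1165721 to 1166947, plus strand), pantothenate kinase, the first enzyme of coenzyme A synthesis, had 1537 and 1797 against 205 and 193 CPM and rose by 3.07 ± 0.17.

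In amino acid breakdown and nitrogen catabolism 11 of 29 genes rose and 8 fell. PUT4, the proline permease, rose by 2.37 ± 0.15, DAL3 and DAL4 of allantoin use fell by 2.29 ± 0.22 and 1.78 ± 0.15, and BNA3, an aminotransferase of kynurenine, by 1.85 ± 0.15. In vacuole and autophagy genes 9 of 37 rose, near the 23.2% of all genes tested, and 4 fell. ATG1, the kinase that starts autophagy, had 181 and 213 CPM against 667 and 835 CPM and fell by 1.93 ± 0.15, and ATG12 and ATG3, of the conjugation system, rose by 1.26 ± 0.24 and 0.76 ± 0.14. VMA13, a subunit of the vacuolar proton pump, rose by 0.66 ± 0.15. Among 12 genes of ion transport, 3 rose and 3 fell, shares near those of all genes tested (23.2% and 22.3%). The aquaporin AQY1 rose by 1.53 ± 0.17, the sodium pump ENA1 by 1.47 ± 0.18 and the proton pump PMA1 by 0.88 ± 0.15, with 2944 and 2676 against 1516 and 1533 CPM, and the exchanger KHA1 fell by 0.85 ± 0.13.

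Of 33 cell cycle and replication genes 13 rose and 2 fell (median 0.36), at a dilution rate that was the same in both groups. POL3 and POL2, catalytic subunits of replicative DNA polymerases, and MCM3 of the replicative helicase rose by 1.3 ± 0.21, 1.33 ± 0.4 and 1.2 ± 0.15. POL2, at 20.9 and 9.58 against 3.43 and 8.36 CPM, lost its call without either replicate 1 (adjusted p = 0.262 and 0.138), and MCM3 overlaps another gene. CDC20, an activator of the anaphase-promoting complex, fell by 1.58 ± 0.25. Without aerobic-labelled replicate 1, 9 rose and 2 fell. Of 17 mating and meiosis genes 4 rose, near the 23.2% of all genes tested, among them STE6, the pheromone exporter (1.25), and STE20 (0.75). In the same list 4 fell, among them the kinase gene KSS1 (-1.23) and KAR4 (-0.98), and KAR4 lost its call without either replicate 1 (adjusted p = 0.0614 and 0.0942).

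**Figure D4:**
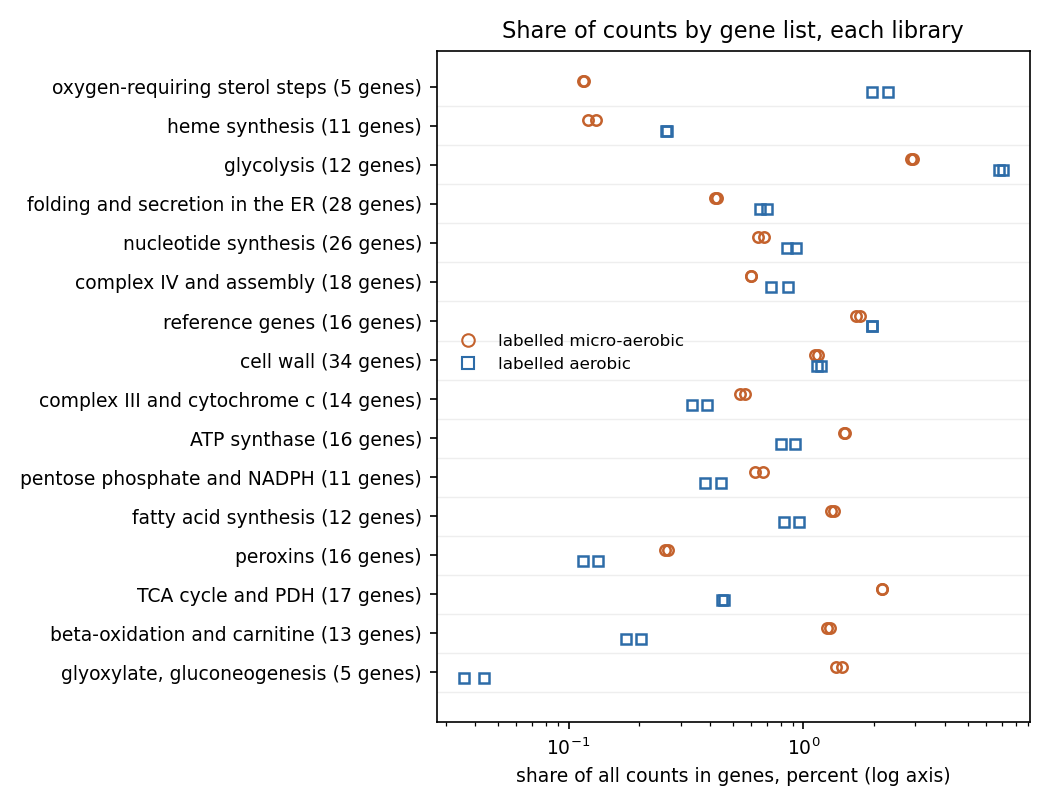
Share of all counts in genes (x axis, percent, log axis) taken by each of 16 gene lists, with the 2 micro-aerobic-labelled libraries as circles above the 2 aerobic-labelled ones as squares. Oxygen-requiring sterol steps stand at 0.116% and 0.115% against 1.95% and 2.28%, glyoxylate cycle and gluconeogenesis at 1.37% and 1.47% against 0.0357% and 0.0436%, and cell wall genes at 1.15% and 1.12% against 1.14% and 1.19%.

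By CPM, which is not corrected for gene length, the 10 most abundant genes of the micro-aerobic-labelled libraries were ADH2, TDH2, ACS1, ADY2, ALD4, OPAR_003787, CIT1, OPAR_002900, OPI3 and TEF2. They took 11.1% and 11.2% of the counts there and 6.22% and 6.42% in the aerobic-labelled libraries. The 10 most abundant of the aerobic-labelled libraries were TDH2, PRX1_1, ADH2, ERG11, ENO2, OPI3, OPAR_001148, GPM1, OPAR_005213 and HXT2, with 7.08% and 7.18% of the counts in the micro-aerobic-labelled libraries and 12.6% and 12.6% in the aerobic-labelled ones. PRX1_1 (OPAR_005031, chromosome 7, 879573 to 880333, plus strand), annotated as peroxiredoxin 1, had 3779 and 3292 CPM against 25965 and 22783 CPM and fell by 2.79 ± 0.17. HXT2 (OPAR_001509, chromosome 3, 517463 to 519091, plus strand), a hexose transporter, had 157 and 148 against 8788 and 7393 CPM, and OPAR_005213, with alcohol dehydrogenase domains, 565 and 709.6 against 8492 and 7920.4 CPM. OPAR_003787, with flocculin repeats, had 7448 and 7225 against 2193 and 3596 CPM and rose by 1.34 ± 0.21. OPI3, a phospholipid methyltransferase, and OPAR_001148, with no domain in the annotation, fell by 0.5 ± 0.15 and 0.51 ± 0.19. OPI3 lost its call without micro-aerobic-labelled replicate 2 (adjusted p = 0.179), and OPAR_001148 in 5 alternatives, among them without either micro-aerobic-labelled replicate or without aerobic-labelled replicate 1 (0.148 to 0.172). The elongation factor gene TEF2 stood at 0.06.

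The steadiest abundant genes were OPAR_004242, TAL1_1 (annotated as transaldolase), PSA1 (mannose-1-phosphate guanylyltransferase), EFT1/EFT2 (elongation factor 2, overlapping another gene) and ODC1 (oxodicarboxylate carrier), with changes between -0.03 and 0.03. OPAR_004242 had 571 and 573 CPM against 573 and 563 CPM. Genes often used as references in expression work did not all hold level: of 16 measured 4 rose and 3 fell. Over all genes tested 23.2% rose and 22.3% fell. FBA1, CDC28 and ACT1 fell by 1.54 ± 0.15, 0.78 ± 0.14 and 0.46 ± 0.15, and PMA1 and TUB2 rose by 0.88 ± 0.15 and 0.53 ± 0.14, while IPP1, TUB1, TEF1 and RPO21 stood at 0.03, -0.11, -0.18 and -0.12. Calls were lost for ACT1 without either micro-aerobic-labelled replicate or without aerobic-labelled replicate 1 (adjusted p = 0.0605 to 0.119), and for TUB2 without micro-aerobic-labelled replicate 1 (0.0985). RPO21 fell without aerobic-labelled replicate 1 (change -0.43, adjusted p = 0.0426).

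The 10 largest rises and 10 largest falls held both named and unnamed genes. OPAR_000628 (chromosome 2, 29569 to 32096, minus strand), with glycoside hydrolase family 3 domains, had 1712 and 1579 CPM in the micro-aerobic-labelled libraries and 0 counts in both aerobic-labelled ones, and was at least 6353-fold higher, taking 3 counts over a group as the floor of a count of 0. OPAR_002811 and OPAR_002328, with sugar transporter domains, had 4187 and 3709.9 against 6.86 and 6.63 CPM and 4904 and 5304 against 32 and 11 CPM. ICL1, YAT1, IDP2 and FDH1, described above, were also among the 10 largest rises. The others were OPAR_000629, with dihydroxyacetone kinase domains, at 21.1 and 16.1 against 0.191 and 0.158 CPM (ratio 108, counting interval 29.5 to 894), OPAR_004673, with a ribose-5-phosphate isomerase domain, at 50.9 and 46.3 against 0.953 and 0.316 CPM, and OPAR_004292, with sugar transporter domains, at 646 and 814 against 8.96 and 11.7 CPM.

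Among the falls, OPAR_001179 (chromosome 2, 955823 to 957364, plus strand), with domains of flavin-dependent oxidoreductases, had 0 counts in both micro-aerobic-labelled libraries and 524 and 527 CPM in the aerobic-labelled ones, and was at least 2195-fold lower. Its near neighbour OPAR_001177, with a TauD dioxygenase domain, had 1.12 and 0.319 against 395 and 298 CPM. ADH7, an alcohol dehydrogenase homolog, had 3 counts over the micro-aerobic-labelled libraries and 728 over the aerobic-labelled ones. After ERG25 and VHT1 came OPAR_001195, with a flavin monooxygenase domain, at 9.73 and 12.8 against 2085 and 2009 CPM. OPAR_000481 and OPAR_002173, with no domain in the annotation, fell by 7.13 ± 0.25 and 6.55 ± 0.26, YHK8, a transporter homolog, by 6.99 ± 0.26 and JLP1, a sulfonate dioxygenase, by 6.62 ± 0.21. JLP1 had 6.22 and 8.30 against 723 and 710.5 CPM. These genes were chosen for large changes and for groups that do not overlap, so the gap between groups follows from the choice.

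By protein family, 127 Pfam families held at least 8 tested genes. The highest median change was that of sugar and related transporters (PF00083), at 1.39 over 35 genes, of which 25 rose and 6 fell, so that HXT2 (-5.73) went against most of its family. Fungal transcription factors of PF11951 followed with a median of 0.85 over 18 tested genes, 9 higher and 3 lower. Hydantoinase domains (PF01968) had 0.82 over 9 genes, Myb-like domains (PF13921) 0.67 over 10, and the alcohol dehydrogenase family (PF08240) 0.55 over 16, with 10 higher and 3 lower, ADH7 and OPAR_005213 among the lower ones. The lowest medians were those of glycosyltransferases of PF04488 (-0.69 over 10 genes, 6 lower and 3 higher), thioredoxin domains (PF00085, -0.64 over 10, 6 lower and 1 higher), oxidoreductase NAD-binding domains (PF00175, -0.53 over 8), KTR-type mannosyltransferases (PF01793, -0.51 over 12, 7 lower and 1 higher) and aldo-keto reductases (PF00248, -0.46 over 16, 6 lower and 4 higher). NCP1 held the largest fall of PF00175 and OPAR_003576 that of PF00248 (-5.51). These medians are descriptions, with no test of a family.

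Genes of like change also lay side by side. There were 9 runs of at least 4 adjacent genes that all changed in one direction by at least 2-fold, 5 of higher and 4 of lower genes, 44 genes in all. The longest held 9 falling genes on chromosome 2, 977936 to 993061, from OPAR_001190 to OPAR_001198. It includes VHT1, OPAR_001195, the further flavin monooxygenase domain gene OPAR_001192 (107 and 104 CPM against 1437 and 1365 CPM), OPAR_001191 with a pyridoxal phosphate enzyme domain (31.1 and 33.1 against 938 and 868 CPM), OPAR_001194 with a luciferase-like monooxygenase domain and OPAR_001196 with a dioxygenase domain. Next was a run of 6 rising genes on chromosome 2, 26594 to 39264, with OPAR_000628, OPAR_000629, DERI1 (annotated as D-erythrulose-4-phosphate isomerase, 2.71 and 3.03 CPM against 0 counts in both aerobic-labelled libraries), the transporter domain gene OPAR_000631 (203 and 170.4 against 3.62 and 2.68 CPM) and the transcription factor domain gene OPAR_000632. A run of 4 on chromosome 1, 626418 to 632945, held the transcription factor domain gene OPAR_000367 (2.85), the transketolase domain gene OPAR_000368 and the transporter domain gene OPAR_000369 (139 and 103 against 2.29 and 1.42 CPM). OPAR_000368 had only 1.44 and 0.958 CPM, against 0 counts in both aerobic-labelled libraries. A run of 4 falling genes on chromosome 1, 844607 to 852267, held ERG1 beside SYP1 (-1.03), and one of 4 rising genes on chromosome 7, 1375306 to 1382841, held STB5 beside BUL2 (2.12). Some runs rest on calls that other fits did not keep. OPAR_002779, in the run of 5 on chromosome 5, was not called in DESeq2 (adjusted p = 0.0694). OPAR_003577, in a run of 4 on chromosome 6, stood at -0.80 without aerobic-labelled replicate 1. These genes, OPAR_000627 of the run of 6 and OPAR_005326 of the chromosome 7 run lost their calls in fits that left out a library. How many runs would lie side by side by chance was not tested.

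Some genes differed between replicates of one group. In the aerobic-labelled group the widest gaps were those of OPAR_003230, with sugar transporter domains, at 30.7 and 78.3 CPM, the chromatin gene EAF1 at 58.7 and 129.6, MET18, of cytosolic iron-sulfur assembly, at 52.8 and 107, OPAR_004704 at 172 and 85.4 and OPAR_001082 at 46.9 and 94.4. EAF1 was called higher (0.69) and lost that call when the fit held the 4 wild-type libraries or lacked either micro-aerobic-labelled replicate or aerobic-labelled replicate 1 (adjusted p = 0.0616 to 0.226). MET18, not called in the fit of all 8 libraries (change -0.24), stood at -0.66 without aerobic-labelled replicate 1. OPAR_003230 was called higher, but not in DESeq2 (adjusted p = 0.115), and stood at 0.35 without that replicate. In the micro-aerobic-labelled group the widest gaps were those of OPAR_005355 at 98.1 and 199.8 CPM, OPAR_001693 at 74.7 and 42.2, RNR3, OPAR_000924 with amino acid permease domains at 125 and 195 and OPAR_004635 with a cyclin domain at 70.3 and 47.9. OPAR_004635, not called in the fit of all 8 libraries, stood at -0.58 without aerobic-labelled replicate 1.

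The aerobic-labelled replicates differed by gene length. Tested genes were cut into 5 classes of about equal size by length. In the shortest class, with a median length of 495 bases, replicate 1 exceeded replicate 2 by a median of 0.24 on the log2 scale, and in the longest class, with a median of 2613 bases, it lay below by 0.21 (median log2 ratio -0.21). Spearman's rho between gene length and this ratio was -0.44 over 5265 genes, a description across genes. The micro-aerobic-labelled replicates differed by -0.04 and 0.04 in the same classes (rho 0.16). The change between the groups had medians of -0.14 in the shortest and 0.06 in the longest class, and of -0.04 in both without aerobic-labelled replicate 1. Without aerobic-labelled replicate 2 these medians were -0.25 and 0.18, so the dependence on length varied with the library left out. With each library's trend with length taken out, 1179 genes were higher and 1353 lower. The 5 oxygen-requiring sterol steps, the 12 glycolytic genes and the 5 glyoxylate and gluconeogenic genes kept their calls both in that fit and without replicate 1.

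**Figure D5:**
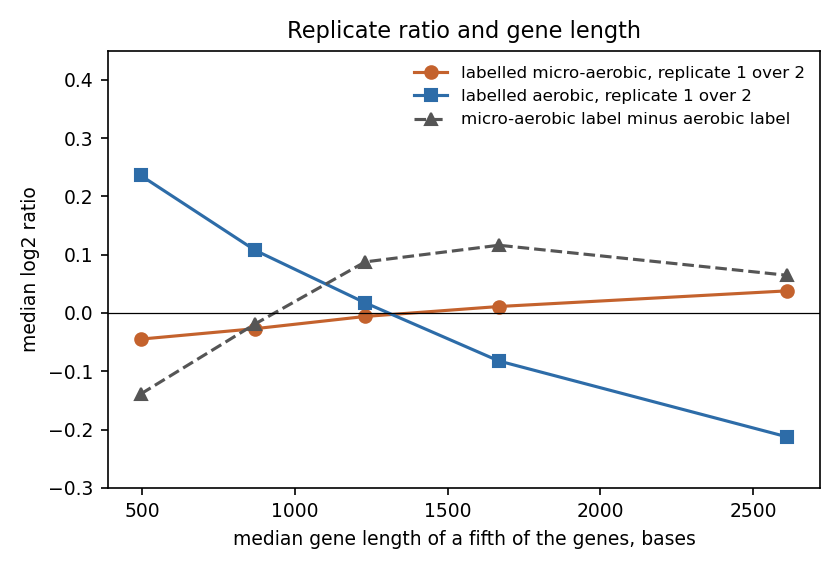
Median log2 ratio (y axis) in 5 length classes of the tested genes (x axis, median length in bases), for replicate 1 over 2 in the micro-aerobic-labelled libraries (circles), replicate 1 over 2 in the aerobic-labelled libraries (squares) and the change between the groups (triangles, dashed). The squares fall with length between 0.24 and -0.21 while the circles stay between -0.04 and 0.04.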

How the data were processed

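Polyadenylated RNA of 8 libraries was sequenced from a stranded kit, per the labels' protocols. The deposited values are whole, unnormalized counts of read pairs. Per the file headers, featureCounts made them on gene features with no strand option, so reads of the 303 genes that overlap another cannot be assigned with certainty. The submitters' processing notes name featureCounts 1.6.0, edgeR 3.28.1, SAMtools 1.3.1 and Bowtie 1.2.1.1, without their roles. Coordinates are those of the deposited DL-1 annotation, which names no assembly. The table holds 4 more per-library columns, not used here.

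The authors also deposited a table of log2 fold changes and adjusted p-values for this comparison, whose groups it does not name. Against the counts it proved to hold aerobic-labelled minus micro-aerobic-labelled libraries, the sign opposite to that used here (ERG25 has 7.92 and ICL1 has -8.37 in the authors' deposited table). Of 5268 genes, 2711 have an adjusted p below 0.05 in it, among them 2395 of the 2398 called here. Both rest on the same libraries.

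Counts were tested with edgeR 4.0.16 (limma 3.58.1, R 4.3.3): filterByExpr kept 5265 genes, TMM scaled the libraries, all 8 were fitted with one mean per group (4 residual degrees of freedom, common coefficient of variation 0.118), and the quasi-likelihood F test was two-sided with Benjamini-Hochberg adjustment at 0.05. An SE was taken as the size of the change divided by the root of its F value. CPM use TMM-scaled sizes, and 3 counts equal 0.473 to 0.572 CPM in a wild-type library. Counting intervals (95%, exact binomial) and floors (3 counts over a group) cover counting error only. Alternatives were other scalings, filters and tests (DESeq2 1.42.0), a fit of the 4 wild-type libraries, each replicate left out and, chosen after seeing the data, the removal of length trends.

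Symbols for S. cerevisiae ORF names came from a hand-made table of 860 entries, which also served the 38 gene lists. The members and lists were chosen with earlier results of these data known. Named are all members of the oxygen-requiring sterol, other oxygen-requiring, heme, glycolysis, TCA and glyoxylate lists, up to 4 called members of largest change in other lists, the 10 largest rises and falls (at least 10 CPM in a group, no overlap of groups or genes), the 10 most abundant genes per group, the 5 steadiest of at least 500 CPM, the 5 widest replicate gaps per group of at least 50 CPM, and genes in runs. Other genes named were chosen after their values were seen. No promoter sequences were used here, so motifs were not searched.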

Additional observations from a re-analysis of the deposited data

How the results depend on the processing

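No paired analysis was possible because the titles of the wild-type groups share only 1 number. The count of lower genes was 1176, and 770 to 1221 when 1 wild-type library was left out, lowest without micro-aerobic-labelled replicate 1. That of higher genes was 1222 and 823 to 1227, and those by at least 2-fold were 471 and 435 to 581 for higher and 414 and 396 to 474 for lower genes. In these fits a lone library is assumed to vary like the other groups. Under the other settings these 4 counts stayed within 1.5 times of those reported. Of 38 list medians, 20 moved by more than their SD over pairs of libraries under upper quartile scaling, 12 with length trends taken out, 2 under RLE scaling, none in the fit of the 4 wild-type libraries and 4 to 11 when a library was left out. Of the 2398 calls, 2248 were shared with the fit of the 4 wild-type libraries, 2320 with DESeq2, 2342 with RLE scaling, 2188 with upper quartile scaling and 2256 with length trends taken out, and no shared call changed sign in these or in the fits that left out a library. Upper quartile scaling placed the median of all genes at 0.12, against 0.02, and 59.6% of its calls were higher, against 51.0%. Of the named genes, none with a call reversed under the alternatives run. Of 307, 26 lost a call without micro-aerobic-labelled replicate 1 and 11 to 18 without another library, and at most 6 under any other alternative. With 2 libraries a group, small changes and genes of few counts are the least certain, and glucose, Tween 80 and the oxygen label cannot be told apart.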

Other observations

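Genes with some domains of oxygen-using enzymes were looked at by domain, the sterol and sphingolipid genes above included. Other such domains were left out, so the counts do not describe oxygen-using enzymes as a whole. Among those left out are the alcohol oxidase domains of OPAR_002900, which was higher in the micro-aerobic-labelled libraries, as given above. These groups were chosen after their values were seen and are a description, with no test of the group. Their counts stand beside 22.3% of all genes tested called lower and 23.2% called higher. All 5 tested genes with the fatty acid hydroxylase domain PF04116 fell (median -2.65): ERG25, ERG3, SCS7, SUR2 and ERG25_1. The call of ERG25_1 was lost when any 1 wild-type library was left out, as given above. It was also lost in the fit of the 4 wild-type libraries (adjusted p = 0.0650) and under upper quartile scaling (0.155). Of 7 tested genes with the TauD dioxygenase domain PF02668, 4 fell, none rose and 3 were not called (median -1.64). JLP1 and OPAR_001177 led them, and OPAR_004503 had 13.2 and 9.58 CPM in the micro-aerobic-labelled libraries, against 79.9 and 66.6 CPM in the aerobic-labelled ones. Of 7 with the flavin monooxygenase domain PF01494, 5 fell and 1 rose (median -1.19). The one that rose, OPAR_001985, had 0.957 and 0.639 CPM in the micro-aerobic-labelled libraries and 0 counts in both aerobic-labelled ones, and lost its call without micro-aerobic-labelled replicate 1 or either aerobic-labelled replicate (adjusted p = 0.0629 to 0.0918). Of 4 tested cytochrome P450 genes, ERG11 and ERG5 fell, OPAR_005027 rose by 1.08 ± 0.16, and OPAR_000524 stood at 0.3. FMO1, a flavin monooxygenase of the endoplasmic reticulum in S. cerevisiae, had 13.1 and 14.9 against 174 and 172 CPM and fell by 3.63 ± 0.18. The P450 genes and OPAR_001985 thus did not follow a single direction.

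Several genes of sulfur uptake and use fell beside JLP1, also chosen after their values were seen. SUL2, a sulfate permease, had 165 and 146 CPM in the micro-aerobic-labelled libraries, against 1059 and 1155 CPM in the aerobic-labelled ones. MUP3, a methionine permease, fell by 1.67 ± 0.24, MET10, a sulfite reductase subunit, by 1.46 ± 0.16, and MET32, in S. cerevisiae a regulator of sulfur genes, by 1.3 ± 0.14. MET14, which acts in sulfate activation, and MET16, a reductase after it, were not called and stood at -0.08 and -0.29, and MET6, methionine synthase, at -0.08. MET16 fell without aerobic-labelled replicate 2 (change -0.45, adjusted p = 0.0233). MET2, homoserine acetyltransferase, rose by 0.7 ± 0.13, and YCT1, a cysteine transporter, by 1.75 ± 0.28. Of 11 sulfur genes looked at, 6 fell, 2 rose and 3 were not called, where 22.3% of all genes tested fell and 23.2% rose. The remaining fall was that of CBF1. Its call was lost under upper quartile scaling (adjusted p = 0.0802), with length trends taken out (0.0830) and when any 1 wild-type library was left out.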
